A study of Capra hircus with 8 samples.

Results

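The genes described here are markers of macrophages and dendritic cells, measured by RNA sequencing of polyadenylated RNA from skin of cashmere goats and milk goats. The list held 33 gene symbols, chosen as genes known to be used by these cells. Earlier results of these data were known when the list was written. A gene was taken as a member where its symbol stood in the count table, and 30 of the 33 did, among 18815 genes in all. CD163, a scavenger receptor of macrophages, CCR2, a chemokine receptor of monocytes, and CYBB, a subunit of the phagocyte oxidase, were not matched there. After the filter on low counts 25 members were tested among 14085 genes. CD80, MARCO, CCR7, XCR1 and TREM2 had too few reads to be tested.

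Cashmere goats carry a fine undercoat, and milk goats are kept for milk. Each combination of breed and month (3, 6, 9 and 12) is represented by 1 skin library, so that 4 cashmere goat libraries were set against 4 milk goat libraries. Whether these are months of life, as the labels put it, or months of the year cannot be told apart. No treatment or genotype is given for either breed, and the labels do not say how many animals stand behind a library. The p-values below therefore rest on the spread left between these 8 libraries after the model is fitted, which may be technical in part. In the model of month and breed, a breed difference that changes with month adds to that spread.

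Macrophages of the skin arise from embryonic precursors and from blood monocytes, depend on the receptor CSF1R, and clear debris with scavenger receptors and complement. Dendritic cells depend on the receptor FLT3, take up antigen and present it to T cells on MHC class II molecules, and Langerhans cells are their relatives within the epidermis. The hair follicle cycles through growth, regression and rest, and in mice macrophages around it are known to change in number through that cycle. In these bulk samples fewer cells of a type and less RNA per cell cannot be told apart.

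The label of the list held up in part. Reads of CSF1R, AIF1, the C1q chains, MRC1 and CD14, which mark macrophages and monocytes, were present in every library. CD207, the lectin of Langerhans cells, and FLT3 and ZBTB46, which mark dendritic cells, were present in every library as well. Few reads came from the markers of migrating and of cross-presenting dendritic cells. CCR7, the receptor that guides dendritic cells to lymph nodes, had 17 reads over the 4 cashmere goat libraries and 20 over the 4 milk goat libraries. XCR1, a receptor of cross-presenting dendritic cells, had 12 and 3 reads, and CD80, a costimulatory ligand, had 8 and 5, in the same order of breeds. MARCO, a scavenger receptor, had 3 reads in cashmere goats and 4 in milk goats, and TREM2, a lipid-sensing receptor, had 1 and 3. No breed difference can be read from counts of this size. In the second count table, described below, MARCO had more reads, 48 in cashmere goats and 100 in milk goats, and was tested. Its log2 fold change there was -0.45 (edgeR adjusted p = 0.580), with 8 reads in cashmere goats against 43 in milk goats in month 12.

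The libraries held 7480053 to 8718429 reads in cashmere goats and 11333734 to 13899750 reads in milk goats. Levels are given as counts per 1000000 reads after TMM scaling (CPM), and the limit that 0 reads allow, which is 3 reads, stood for 0.344 to 0.395 CPM in cashmere goats and 0.231 to 0.276 CPM in milk goats. The epidermal keratin KRT1 was found at 4657 to 8146 CPM in cashmere goats and at 7764 to 21113 CPM in milk goats. TCHH, a protein of the inner root sheath of growing hair, took 2.10% to 6.64% of all reads in cashmere goats, and in milk goats 0.946%, 5.71%, 12.96% and 0.243% in months 3, 6, 9 and 12. The TMM factor of the milk goat library of month 9 was 0.783, while those of the other 7 libraries were 0.990 to 1.13.

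Levels of different genes were compared per length, in the FPKM of the authors (reads per kilobase and per 1000000 mapped reads), as means over the 8 libraries. CD74, the invariant chain that escorts MHC class II molecules, stood highest at 109.9 FPKM. LAPTM5, a lysosomal protein of leukocytes, followed at 18.75 FPKM, and AIF1, an actin-binding protein of activated macrophages, at 13.8 FPKM. TYROBP, CTSS and FCER1G lay between 8.35 and 9.01 FPKM, and the chains C1QB, C1QA and C1QC at 6.67, 5.18 and 3.13 FPKM. CD14, MRC1, CSF1R, CD68, SPI1 and CD207 lay between 2.34 and 3.85 FPKM. The transcription factors of dendritic cells were lower, with BATF3 at 1.60, IRF8 at 0.83 and ZBTB46 at 0.38 FPKM. CD300E and CD86 lay near 1 FPKM, at 1.20 and 1.12, and CD83, ITGAX, ITGAM, FLT3 and MSR1 between 0.17 and 0.74 FPKM. The 5 genes that were not tested lay between 0.026 and 0.13 FPKM.

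The heat map of the members shows each gene against its own mean over the 8 libraries. The milk goat libraries of months 3 and 6 were high for most members, and the milk goat library of month 9 was low for most of them. The cashmere goat libraries differed less among themselves.

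**Figure D1:**
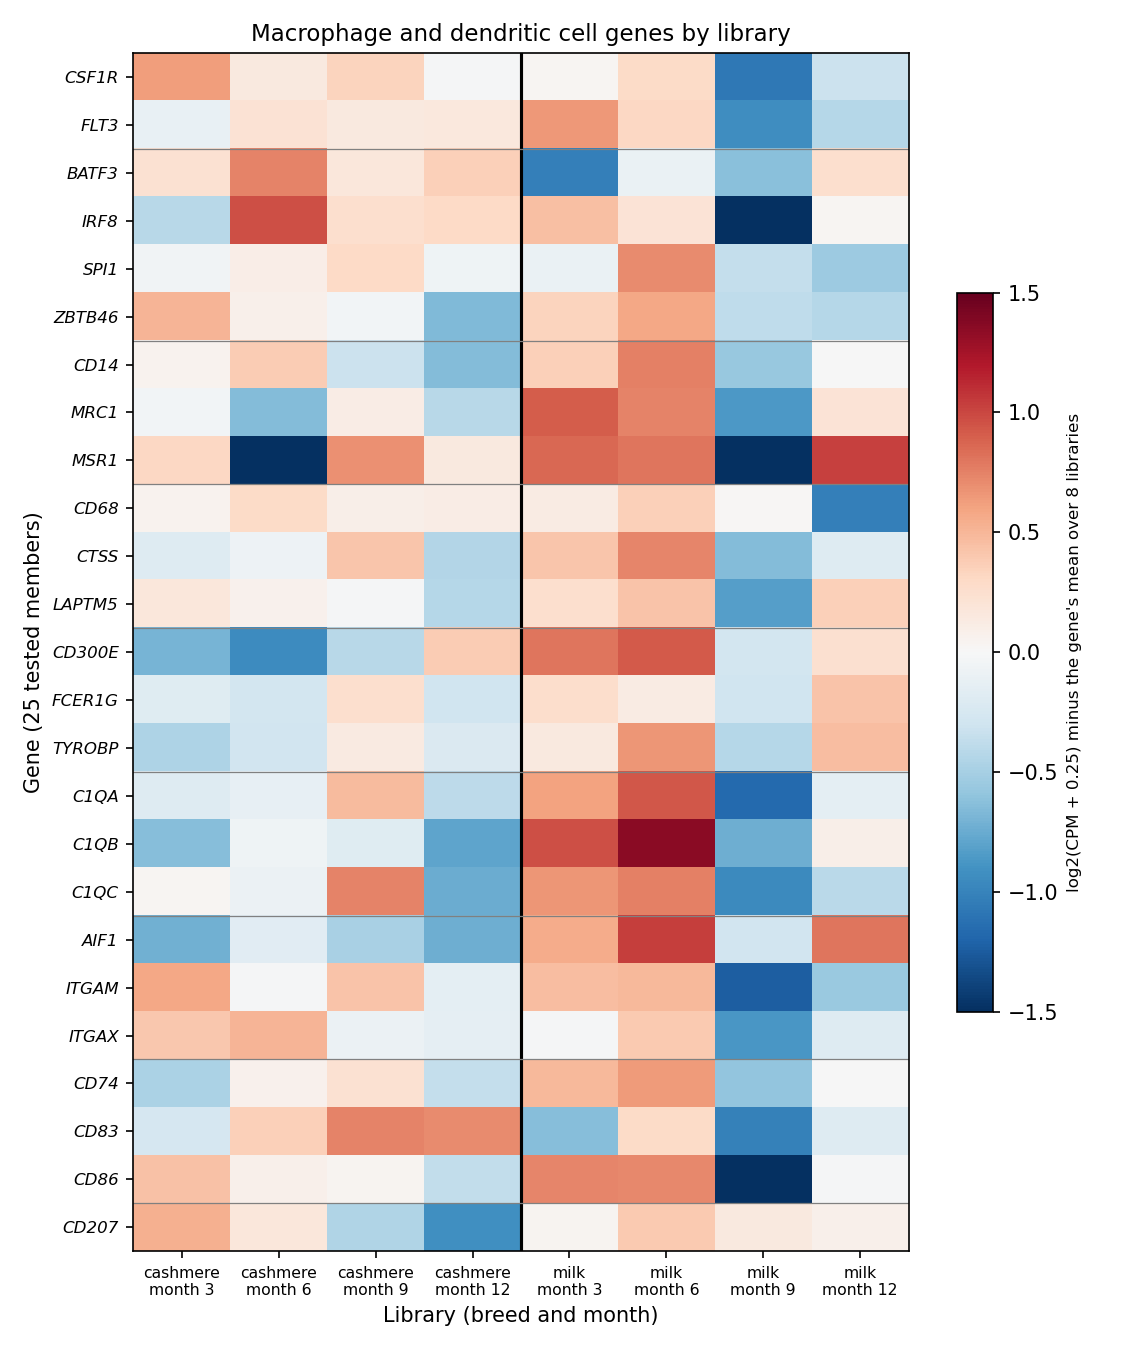
The level of each tested member in each library, with genes down the page and the cashmere goat libraries of months 3, 6, 9 and 12 left of the milk goat libraries of the same months; colour gives the difference of log2(CPM + 0.25) from the mean of that gene, with colours ending at 1.5 in either direction. The milk goat column of month 9 is low for most genes, and 20 of the 25 have their lowest milk goat value there.

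The breed comparison asked which members differed between cashmere goats and milk goats across the months, with month as a term of the model. AIF1 was the one member past the threshold, and it was lower in cashmere goats. AIF1 (gene22543), which marks macrophages and microglia, stood at 9.96, 14.7, 11.8 and 9.88 CPM in cashmere goats in months 3, 6, 9 and 12, against 24.5, 34.4, 13.5 and 29.1 CPM in milk goats. It was lower in cashmere goats in 4 of 4 months, by the smallest margin in month 9, and across months the breeds overlapped between the cashmere goat library of month 6 and the milk goat library of month 9. The means were 11.6 ± 2.25 CPM in cashmere goats and 25.4 ± 8.89 CPM in milk goats (SD, n = 4 months each). The log2 fold change, cashmere goats over milk goats, was -1.08 ± 0.24 (SE; edgeR quasi-likelihood test, adjusted p = 0.0492 by Benjamini-Hochberg over all genes), a level 2.11-fold higher in milk goats. With any of the 8 libraries left out AIF1 was no longer past the threshold, but in 6 of those 8 fits 0 to 4 genes of all those tested were called, against 675 with every library. Leaving out either library of a month bases the breed difference on the same libraries of the other months, so such a pair of fits is a single result. Without the cashmere goat library of month 12, 869 genes were called and AIF1 had an edgeR adjusted p of 0.0615. Without that of milk goats, 743 were called and AIF1 had 0.0588. Over all alternatives its log2 fold change ran from -1.36 to -0.80, with an adjusted p between 0.0014 and 0.174.

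Of all genes tested, 3.32% passed lower in cashmere goats and 1.47% passed higher, so 1 of 25 members lower and 0 of 25 higher lay near the background. At an unadjusted p under 0.05, 2 members were lower, AIF1 and C1QB, where 13.9% of all genes were, and 2 were higher, BATF3 and CD83, where 12.9% of all genes were. The log2 fold change was below 0 for 15 of the 25 members, against 47.2% of all genes. The median over the members was -0.11, beside 0.03 over all genes. AIF1 was also the one member lower in cashmere goats in 4 of 4 months, a pattern that 18.1% of all genes had.

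**Figure D2:**
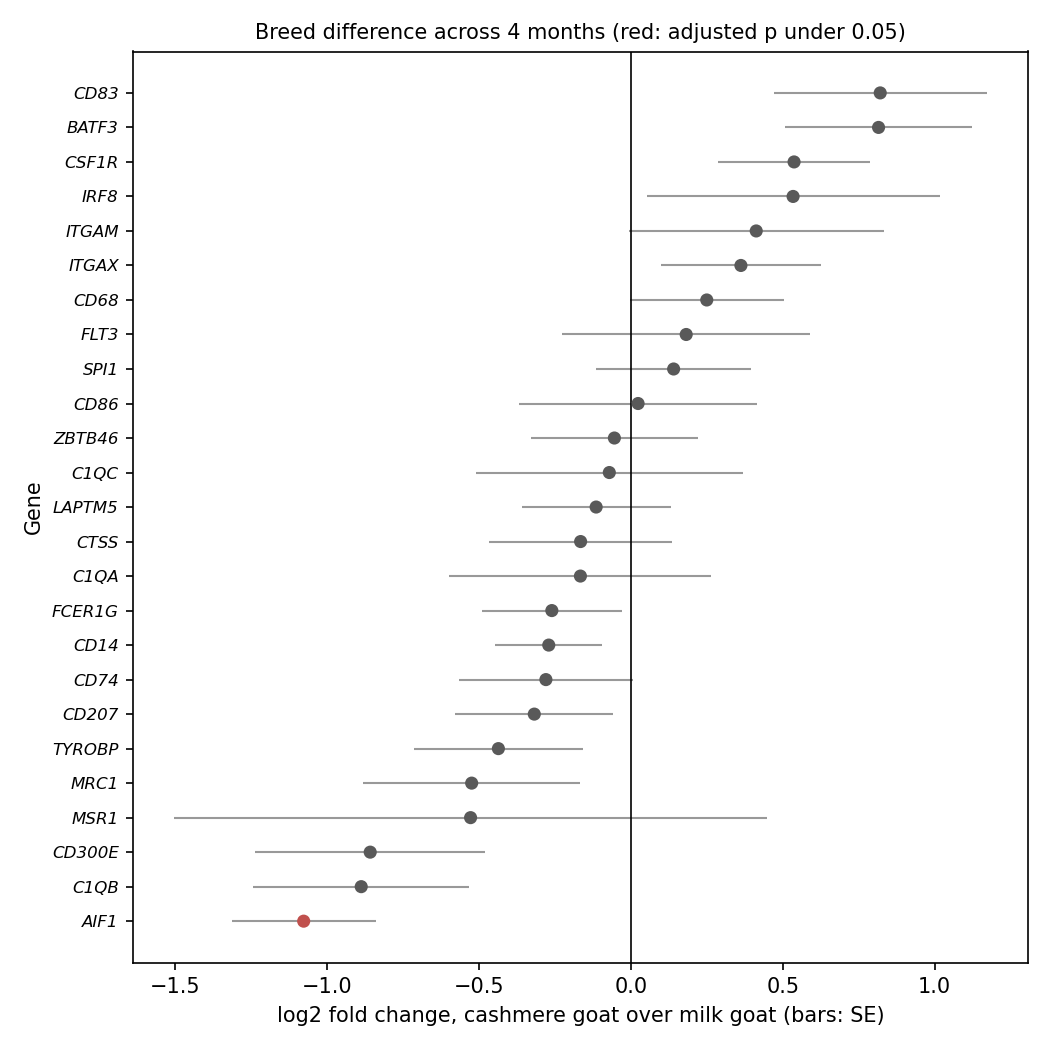
The log2 fold change of each tested member, cashmere goats over milk goats, from the model of month and breed, with bars of 1 SE; the vertical line at 0 marks equal levels. AIF1, at -1.08, is the one member past an adjusted p of 0.05, and BATF3 and CD83 stand at the other end at 0.82.

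Neither growth factor receptor passed the threshold. CSF1R (gene7325), on which macrophages depend for survival, stood at 29.3, 21.0, 24.1 and 18.7 CPM in cashmere goats in months 3, 6, 9 and 12, against 19.4, 23.1, 8.92 and 15.1 CPM in milk goats. It was higher in cashmere goats in every month but month 6, with a log2 fold change of 0.54 ± 0.25 (SE, edgeR adjusted p = 0.216). FLT3 (gene12737) stood at 1.49 to 1.93 CPM in cashmere goats and 0.735 to 2.69 CPM in milk goats, with a log2 fold change of 0.18 ± 0.41 (edgeR adjusted p = 0.809). The ligands of CSF1R did not pass either. CSF1 averaged 20.2 ± 7.73 CPM in cashmere goats and 20.5 ± 6.14 CPM in milk goats, with a log2 fold change of -0.05 (edgeR adjusted p = 0.865). IL34, the ligand that Langerhans cells need in mice, averaged 16.3 ± 3.34 CPM in cashmere goats and 15.8 ± 8.32 CPM in milk goats, with a log2 fold change of 0.18 (edgeR adjusted p = 0.756).

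None of the 4 lineage transcription factors passed the threshold in edgeR. BATF3 (gene16413), needed for cross-presenting dendritic cells in mice, had 2.86, 4.21, 2.75 and 3.16 CPM in cashmere goats in months 3, 6, 9 and 12, against 1.06, 2.23, 1.47 and 2.91 CPM in milk goats. It was higher in cashmere goats in each of the 4 months, by the smallest margin in month 12, with a log2 fold change of 0.82 ± 0.31 (SE, edgeR adjusted p = 0.148). The share of all genes higher in each of the 4 months was not counted. Tests on FPKM with limma called 1374 of 14085 genes with a pseudocount of 1 and 1161 with 0.1. BATF3 was past the threshold in both, at a limma adjusted p of 0.0362 and 0.0464 in the same order. In the second count table its log2 fold change was 0.30 (edgeR adjusted p = 0.604), near those of IRF8 at 0.34 and SPI1 at 0.45, and in month 12 it was lower in cashmere goats, at 1.32 against 1.49 CPM. SPI1 (gene14777), the factor PU.1 of the myeloid lineage, averaged 8.31 ± 1.04 CPM in cashmere goats and 7.91 ± 3.46 CPM in milk goats. IRF8 (gene17295), a factor of dendritic cells and monocytes, averaged 3.71 ± 1.54 CPM in cashmere goats and 2.71 ± 1.45 CPM in milk goats. ZBTB46 (gene13396), a factor of conventional dendritic cells, averaged 3.13 ± 1.08 and 3.28 ± 1.23 CPM in the same order. The adjusted p of SPI1, IRF8 and ZBTB46 in the edgeR test lay between 0.509 and 0.918.

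The receptors of macrophages for microbes and debris did not pass the threshold. MRC1 (gene13129), the mannose receptor, stood at 31.8, 20.8, 35.3 and 24.5 CPM in cashmere goats in months 3, 6, 9 and 12, against 61.7, 54.9, 17.8 and 37.7 CPM in milk goats. Milk goats were thus higher in months 3, 6 and 12 and lower in month 9, and the log2 fold change was -0.52 ± 0.36 (SE, edgeR adjusted p = 0.377). CD14 (gene7448), the co-receptor for bacterial lipopolysaccharide, stood at 21.9, 27.6, 16.8 and 13.3 CPM in cashmere goats, against 27.03, 35.7, 14.1 and 20.9 CPM in milk goats, with a log2 fold change of -0.27 (edgeR adjusted p = 0.356). In both breeds CD14 was highest in month 6. MSR1 (gene24868), a scavenger receptor for modified lipoproteins, stayed at or under 1.26 CPM in cashmere goats and 1.67 CPM in milk goats, with 0 reads in the cashmere goat library of month 6 and 0 in the milk goat library of month 9.

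The lysosomal and membrane proteins CD68, CTSS and LAPTM5 had log2 fold changes between -0.17 and 0.25. CD68 (gene19180), a glycoprotein of macrophage lysosomes, stood at 8.82, 10.5, 9.05 and 9.22 CPM in cashmere goats, against 9.28, 11.01, 8.64 and 4.05 CPM in milk goats, where month 12 was low. CTSS (gene3264), a protease that trims the invariant chain, stood at 17.8 to 32.3 CPM in cashmere goats and 15.4 to 40.2 CPM in milk goats. LAPTM5 (gene1320) stood at 50.4 to 76.4 CPM in cashmere goats and 38.2 to 91.4 CPM in milk goats. For all 3 genes the cashmere goat libraries lay within the range of the milk goat libraries.

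The 3 chains of C1q, the first component of the classical complement pathway, are made mainly by macrophages and are encoded next to each other, with 0 protein-coding genes between neighbours in the RefSeq gene table. Their summed level was 24.5, 28.5, 37.9 and 19.6 CPM in cashmere goats in months 3, 6, 9 and 12, against 52.5, 65.8, 15.6 and 28.5 CPM in milk goats. The sum was highest of all 8 libraries in milk goats of month 6 and lowest in milk goats of month 9. C1QB (gene1174) stood at 7.90, 11.9, 10.998 and 7.11 CPM in cashmere goats, against 24.6, 32.3, 7.45 and 13.3 CPM in milk goats, with a log2 fold change of -0.89 ± 0.36 (SE, edgeR adjusted p = 0.166). C1QA (gene1171) averaged 11.9 ± 3.41 CPM in cashmere goats and 14.4 ± 7.98 CPM in milk goats, with a log2 fold change of -0.17 ± 0.43. C1QC (gene1172) averaged 6.28 ± 2.78 CPM in cashmere goats and 6.76 ± 3.62 CPM in milk goats, with a log2 fold change of -0.07 ± 0.44. The 3 chains thus shared the order of months in milk goats and differed in the size of the breed difference, none of which passed the threshold.

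CD300E (gene20066), an activating receptor of monocytes, stood at 4.46, 3.73, 5.499 and 9.74 CPM in cashmere goats, against 13.2, 14.2, 6.07 and 8.81 CPM in milk goats. It was lower in cashmere goats in every month but month 12, with a log2 fold change of -0.86 ± 0.38 (SE, edgeR adjusted p = 0.196). In the second count table, described below, it was lower in cashmere goats in month 12 as well, with 15 reads against 52. The exception there was month 9, at 0.629 CPM in cashmere goats and 0.430 CPM in milk goats, with 9 reads in each library. TYROBP (gene17769) and FCER1G (gene3701), the adaptors through which such receptors signal, averaged 7.63 ± 1.42 and 14.2 ± 2.76 CPM in cashmere goats, against 10.6 ± 3.25 and 17.1 ± 3.54 CPM in milk goats. Neither adaptor passed, with adjusted p of 0.344 and 0.501 in the edgeR test.

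ITGAM (gene23894) and ITGAX (gene23895), the alpha chains of the complement receptor integrins of macrophages and dendritic cells, are neighbours in the genome and are similar in sequence, so their reads may be shared. ITGAM averaged 2.49 ± 0.650 CPM in cashmere goats and 1.998 ± 1.15 CPM in milk goats, and ITGAX 3.55 ± 0.863 and 2.83 ± 1.04 CPM in the same order. Their adjusted p in the edgeR test were 0.559 and 0.410. Like BATF3 and CD83, ITGAX was higher in cashmere goats in each of the 4 months, but in the second count table milk goats were higher in 2 months.

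None of the 3 genes of antigen presentation and costimulation that were tested passed the threshold in the first table. CD74 (gene7318) stood at 214, 312, 348 and 232 CPM in cashmere goats in months 3, 6, 9 and 12, against 418, 465, 198 and 296 CPM in milk goats, with a log2 fold change of -0.28 ± 0.29 (SE, edgeR adjusted p = 0.561). Milk goats were higher in months 3, 6 and 12, and lower in month 9. In the second count table, described below, milk goats were lower in month 12 too, at 74.5 CPM against 96.0 CPM in cashmere goats. CD86 (gene337), a costimulatory ligand for T cells, stood at 7.33, 5.66, 5.499 and 4.08 CPM in cashmere goats, against 9.04, 8.93, 1.56 and 5.29 CPM in milk goats, with a log2 fold change of 0.02 ± 0.39. CD83 (gene22011), a marker of mature dendritic cells, stood at 2.52, 3.97, 5.27 and 5.14 CPM in cashmere goats, against 1.87, 3.77, 1.38 and 2.64 CPM in milk goats. It was higher in cashmere goats in each of the 4 months, with a log2 fold change of 0.82 ± 0.35 (SE, edgeR adjusted p = 0.186). The share of all genes with that pattern was not counted.

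CD207 (gene11519) is langerin, the lectin of Langerhans cells. It stood at 16.3, 12.6, 8.13 and 5.79 CPM in cashmere goats in months 3, 6, 9 and 12, against 11.5, 14.8, 12.4 and 11.8 CPM in milk goats. In cashmere goats each month was lower than the one before, while the milk goat libraries kept within 1.29-fold of each other. The second count table, described below, gave 7.52, 6.54, 3.71 and 3.96 CPM in cashmere goats, with month 12 just above month 9, and a 1.71-fold range in milk goats. The breed difference across months was -0.32 ± 0.26 on the log2 scale (SE, edgeR adjusted p = 0.462), and in month 12 the cashmere goat library had 44 reads, against 134 in the milk goat library, a ratio 2.04-fold higher in milk goats. In the second table that difference was not seen, with 57 and 81 reads in the same order and a log2 ratio, cashmere goats over milk goats, of -0.02 (95% interval -0.54 to 0.48).

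The month comparisons asked whether members differed between months across both breeds. No member passed in any of them, and neither did any other gene. The test over all 4 months called 0 of 25 members and 0% of all genes in edgeR. At an unadjusted p under 0.05 it took 1 member, CD14 (edgeR adjusted p = 0.334), where 13.4% of all genes were taken. Month 9 against month 3 took CD14 alone at that level, where 23.6% of all genes were taken, with log2 -0.64. Month 12 against month 6 took 2 members, CD14 at log2 -0.90 and ZBTB46, where 7.6% of all genes were taken. Without the cashmere goat library of month 9, which leaves month 9 to the milk goats, the members taken were 11 of 25 over all months, where 2230 of 14344 genes were, and 14 of 25 for month 9 against month 3, all of them lower in month 9, where 3707 of 14344 genes were. Month 12 against month 6 took 6 of 25 without the cashmere goat library of month 9, where 1154 of 14344 genes were taken. It took 6 of 25 without that of milk goats, where 1157 of 14121 genes were. Without the milk goat library of month 6 it took 0, where 345 of 14080 genes were. For month 9 against month 3 the count was 0 without the milk goat library of month 9, where 1196 of 14121 genes were taken. It was also 0 without either library of month 6. There 2589 of 14349 genes were taken without that of cashmere goats, and 2559 of 14080 without that of milk goats. DESeq2 likewise called 0 members in these comparisons, while it called 536 genes over all months, 1107 for month 9 against month 3 and 94 for month 12 against month 6.

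A test, called seasonal here, asked whether the course over the months differed between the breeds. If these are months of life, it compares ages and not seasons. In a model with a sine curve of 12 months for each breed and 2 residual degrees of freedom, the test called 0 of 25 members and 0% of all genes in edgeR. At an unadjusted p under 0.05 it took 7 members, MRC1, CD300E, C1QA, C1QB, C1QC, CD74 and CTSS, which is 28% of the 25, where 6.42% of all genes were taken. Their unadjusted p lay between 0.0106 and 0.0486 and their adjusted p between 0.552 and 0.770. One library could change these counts. With the cashmere goat library of month 9 left out, 2 members were taken at that level, where 647 of 14344 genes were, and without the milk goat library of month 9, 1 member was, where 2126 of 14121 genes were. Without the milk goat library of month 3, 6 or 12, the members taken were 13, 11 and 14. Of all genes, 2421 of 14041, 3357 of 14080 and 1286 of 14075 were taken in those fits, in the same order. Leaving out the milk goat library of month 6 brought CD74 past the threshold, in a fit that called 501 of 14080 genes. DESeq2 called 80 genes here, 0 of them members.

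Within milk goats the members stood high in month 6 and low in month 9, and in cashmere goats they did not. This pair of months was chosen after the values were seen, and each value is 1 library, so it is a description with no test. The summed level of the members was 516, 606, 664 and 465 CPM in cashmere goats in months 3, 6, 9 and 12, against 817, 929, 384 and 622 CPM in milk goats. Without CD74, the most abundant member, the sums were 302, 293, 316 and 233 CPM in cashmere goats, against 400, 464, 186 and 325 CPM in milk goats. The lowest cashmere goat library was that of month 12, and the lowest milk goat library that of month 9.

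In milk goats, 20 of 25 members had their lowest library in month 9, where 34% of all genes did, and 18 of 25 had their highest in month 6, where 13% of all genes did. For 13 of 25 members the milk goat library of month 6 was the highest of all 8 libraries, against 3.92% of all genes. From month 6 to month 9, 21 of 25 members were lower by over 2-fold in milk goats, against 7.04% of all genes. In cashmere goats 0 of 25 were, against 3.07% of all genes. The median log2 ratio of month 9 over month 6 was 0.16 over the members in cashmere goats, beside 0.03 over all genes there, and -1.37 over the members in milk goats, beside -0.01 over all genes there. All 25 members were below 0 in milk goats and 12 of 25 in cashmere goats.

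The size of this difference varied among the members. CD86 was 5.72-fold lower in month 9 than in month 6 in milk goats, with 17 and 116 reads in those libraries, and IRF8 was 5.15-fold lower, with 7 and 43 reads, against 2.14-fold in the second table, where CD86 was not matched. C1QA was 4.44-fold lower, C1QB 4.34-fold, ITGAM 4.08-fold, C1QC 3.46-fold and MRC1 3.08-fold. FLT3, CD83, CTSS, ITGAX, CSF1R, AIF1, CD14, LAPTM5, CD74, CD300E, TYROBP, SPI1 and ZBTB46 were lower by between 2.04-fold and 2.83-fold. MSR1 had 0 reads in month 9 and 18 in month 6. The least different were BATF3 at 1.52-fold, FCER1G at 1.35-fold, CD68 at 1.27-fold and CD207 at 1.19-fold. For FCER1G this held in the first table only: in the second it was 3.28-fold lower in month 9, with 41 reads against 158 in month 6. In month 12 the milk goat members stood higher than in month 9 again, by a median log2 ratio of 0.76 beside 0.05 over all genes, and 4 of 25 were lower.

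**Figure D3:**
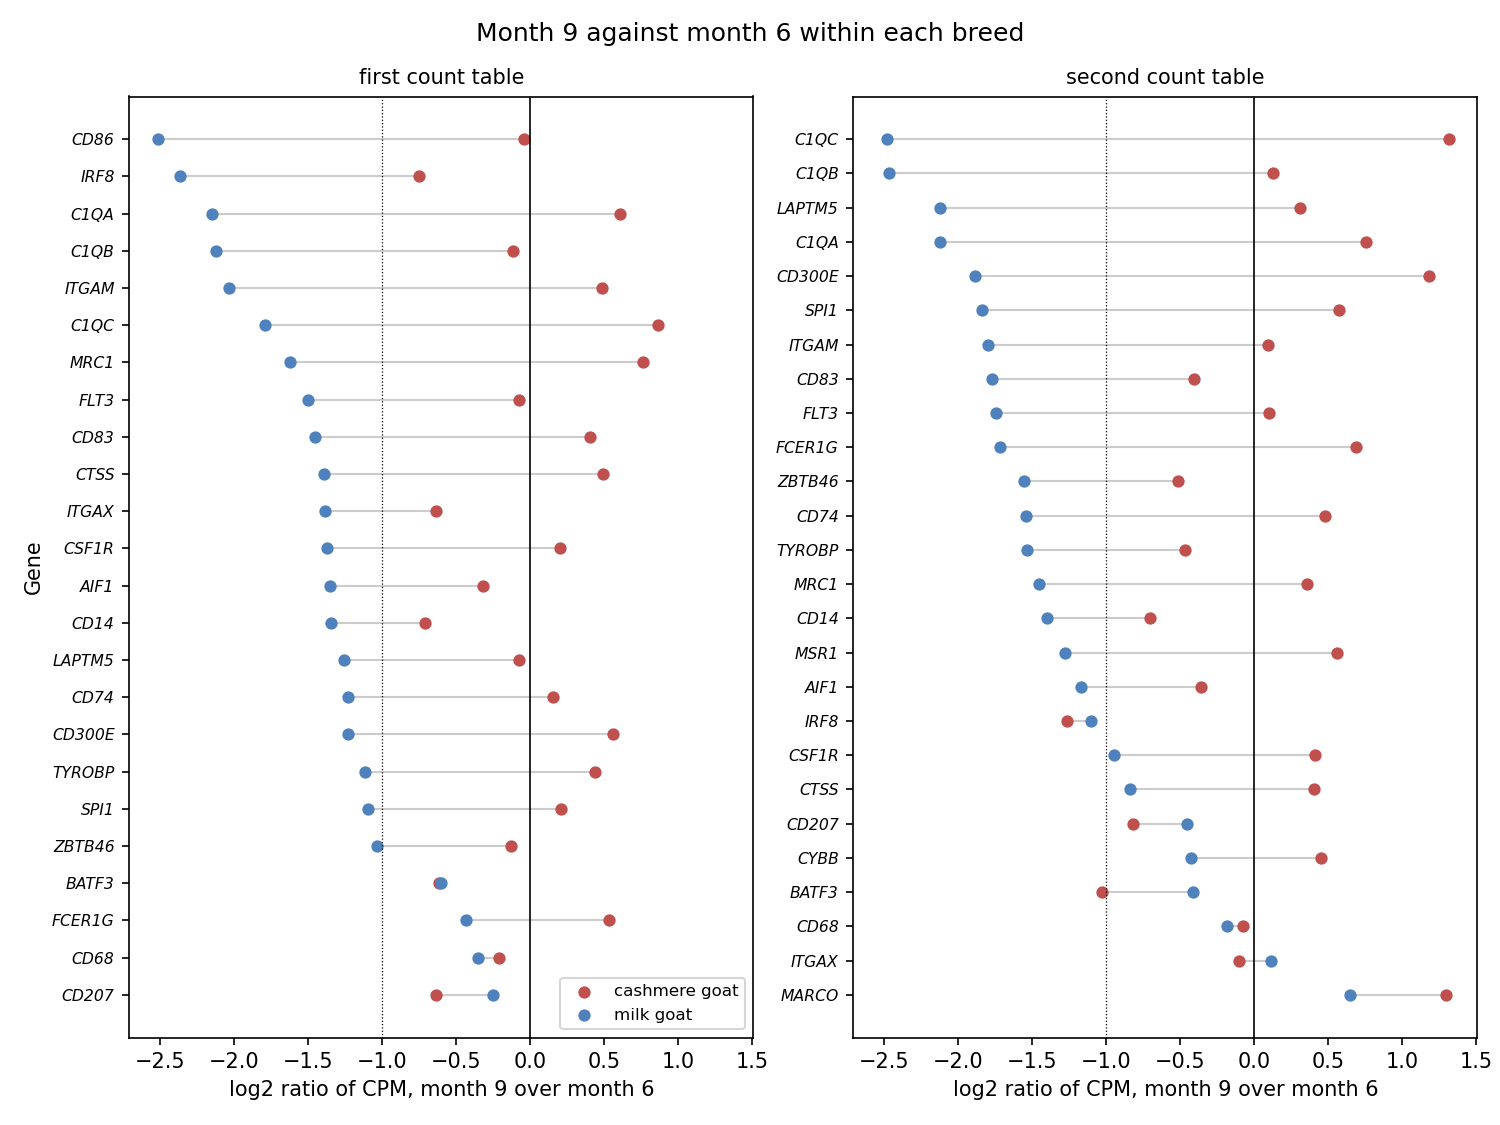
The log2 ratio of CPM in month 9 over month 6 for each member with reads in both libraries, with cashmere goats and milk goats as points joined by a line, in the first count table on the left and in the second on the right; the dotted line marks a level lower by 2-fold. The milk goat points lie left of 0 for every member of the first table that is drawn, and MSR1, with 0 reads in one library, is not drawn there.

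The breed ratio within single months turned round in month 9. In month 3 the median log2 ratio over the members, cashmere goats over milk goats, was -0.45, beside 0.02 over all genes, and in month 6 it was -0.54, beside 0.00. In month 9 it was 0.84, beside 0.06 over all genes, and 3 of 24 members were below 0. In month 12 it was -0.26, beside -0.03 over all genes. These are ratios of 1 library to 1 library, with exact binomial 95% intervals of the reads that cover counting error only, and a gene was counted where it passed 2-fold with at least 20 reads over both libraries.

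In month 3, BATF3 was the 1 of 25 members over 2-fold higher in cashmere goats, where 4.22% of all genes were, and AIF1, CD300E and C1QB were the 3 over 2-fold lower, where 3.73% of all genes were. In month 6, 0 of 24 were higher, where 2.82% of all genes were, and 5 were lower, where 3.45% of all genes were. Those 5 were MRC1, AIF1, CD300E, C1QA and C1QB, led by CD300E with 31 reads in cashmere goats and 185 in milk goats, a log2 ratio of -1.93 (95% interval -2.53 to -1.38). In month 9, 9 of 24 were higher in cashmere goats, where 5.43% of all genes were, and 0 were lower, where 6.59% of all genes were. With library totals in place of TMM factors that count of 9 was 15. These totals raise the month 9 ratio of every gene alike, and the share of all genes was not counted with them. In month 12, CD68 was the 1 of 25 that was higher, where 9.66% of all genes were, and AIF1, MSR1 and CD207 were the 3 that were lower, where 12.1% of all genes were.

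The 9 members over 2-fold higher in cashmere goats in month 9 were CSF1R, ITGAM, CD86, C1QA, C1QC, FLT3, IRF8, CD83 and CTSS. IRF8 led with 30 reads in cashmere goats and 7 in milk goats, a log2 ratio of 2.42 (95% interval 1.20 to 3.85). In the second table it had 34 and 31 reads, a log2 ratio of 0.68 (95% interval -0.06 to 1.43), and was not past 2-fold. C1QA had 147 and 57 reads in the same order, a log2 ratio of 1.68 (95% interval 1.23 to 2.15), and CSF1R 210 and 97 reads, a log2 ratio of 1.43 (95% interval 1.08 to 1.79). The interval of FLT3, with 16 and 8 reads, reached from 0.01 to 2.75.

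**Figure D4:**
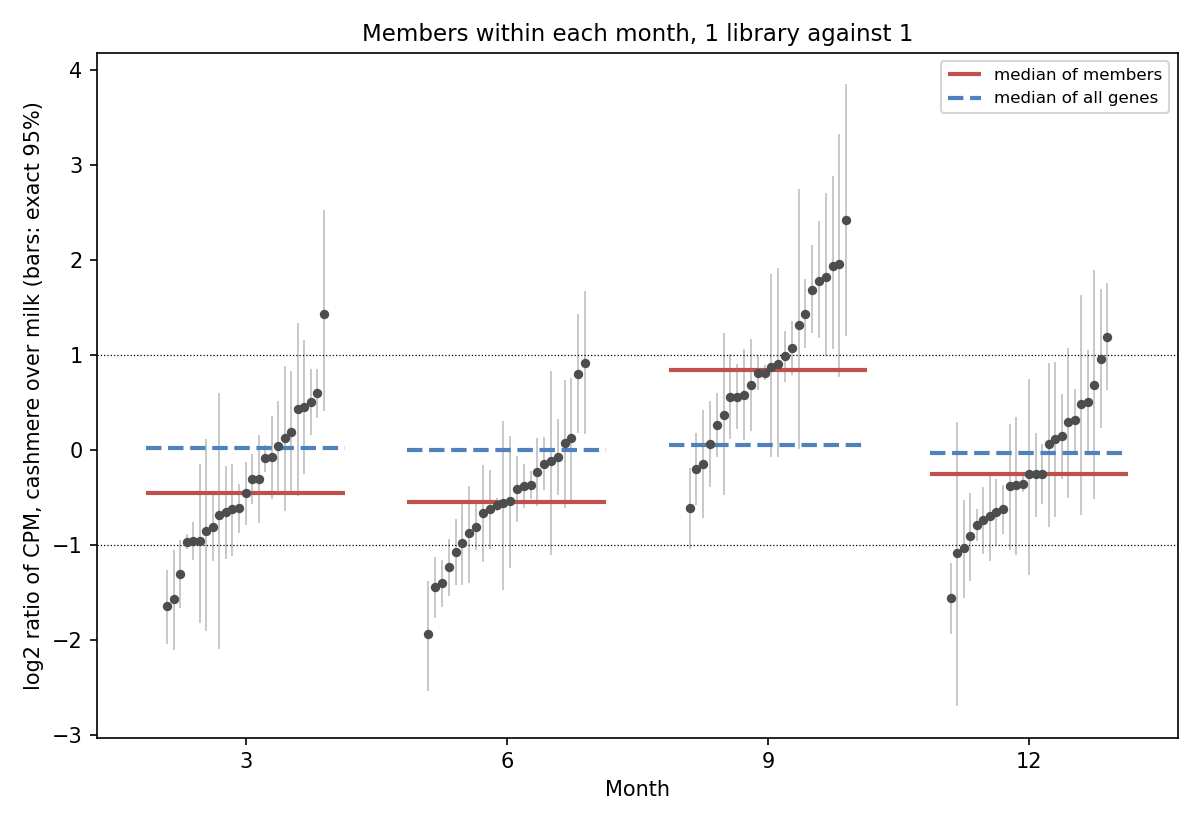
The log2 ratio of CPM, cashmere goats over milk goats, of each member within each month, 1 library against 1, with exact 95% counting intervals as bars; solid lines mark the median over the members and dashed lines the median over all genes. The members lie mostly below 0 in months 3 and 6 and mostly above 0 in month 9.

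The average over months changed when month 9 was left out. With 1 library per breed and month and a term for month, leaving out either library of month 9 bases the breed difference on the same 6 libraries of the other months, so the 2 fits that follow are 1 result. Without the cashmere goat library of month 9, the median log2 fold change of the members, cashmere goats over milk goats, was -0.44, and 11 of 25 were lower in cashmere goats at an unadjusted p under 0.05 in edgeR, which is 44% of the members where 12.3% of all genes were. Without the milk goat library of month 9 the median was -0.43, and 10 of 25 were, which is 40% where 11.9% of all genes were. The 10 were CD14, MRC1, AIF1, TYROBP, FCER1G, C1QA, C1QB, C1QC, CD74 and CTSS, and CD300E made the 11. With all libraries the median was -0.11 and 2 members were lower at that level. None of these members passed after adjustment over all genes in the fits that left out a library.

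**Figure D5:**
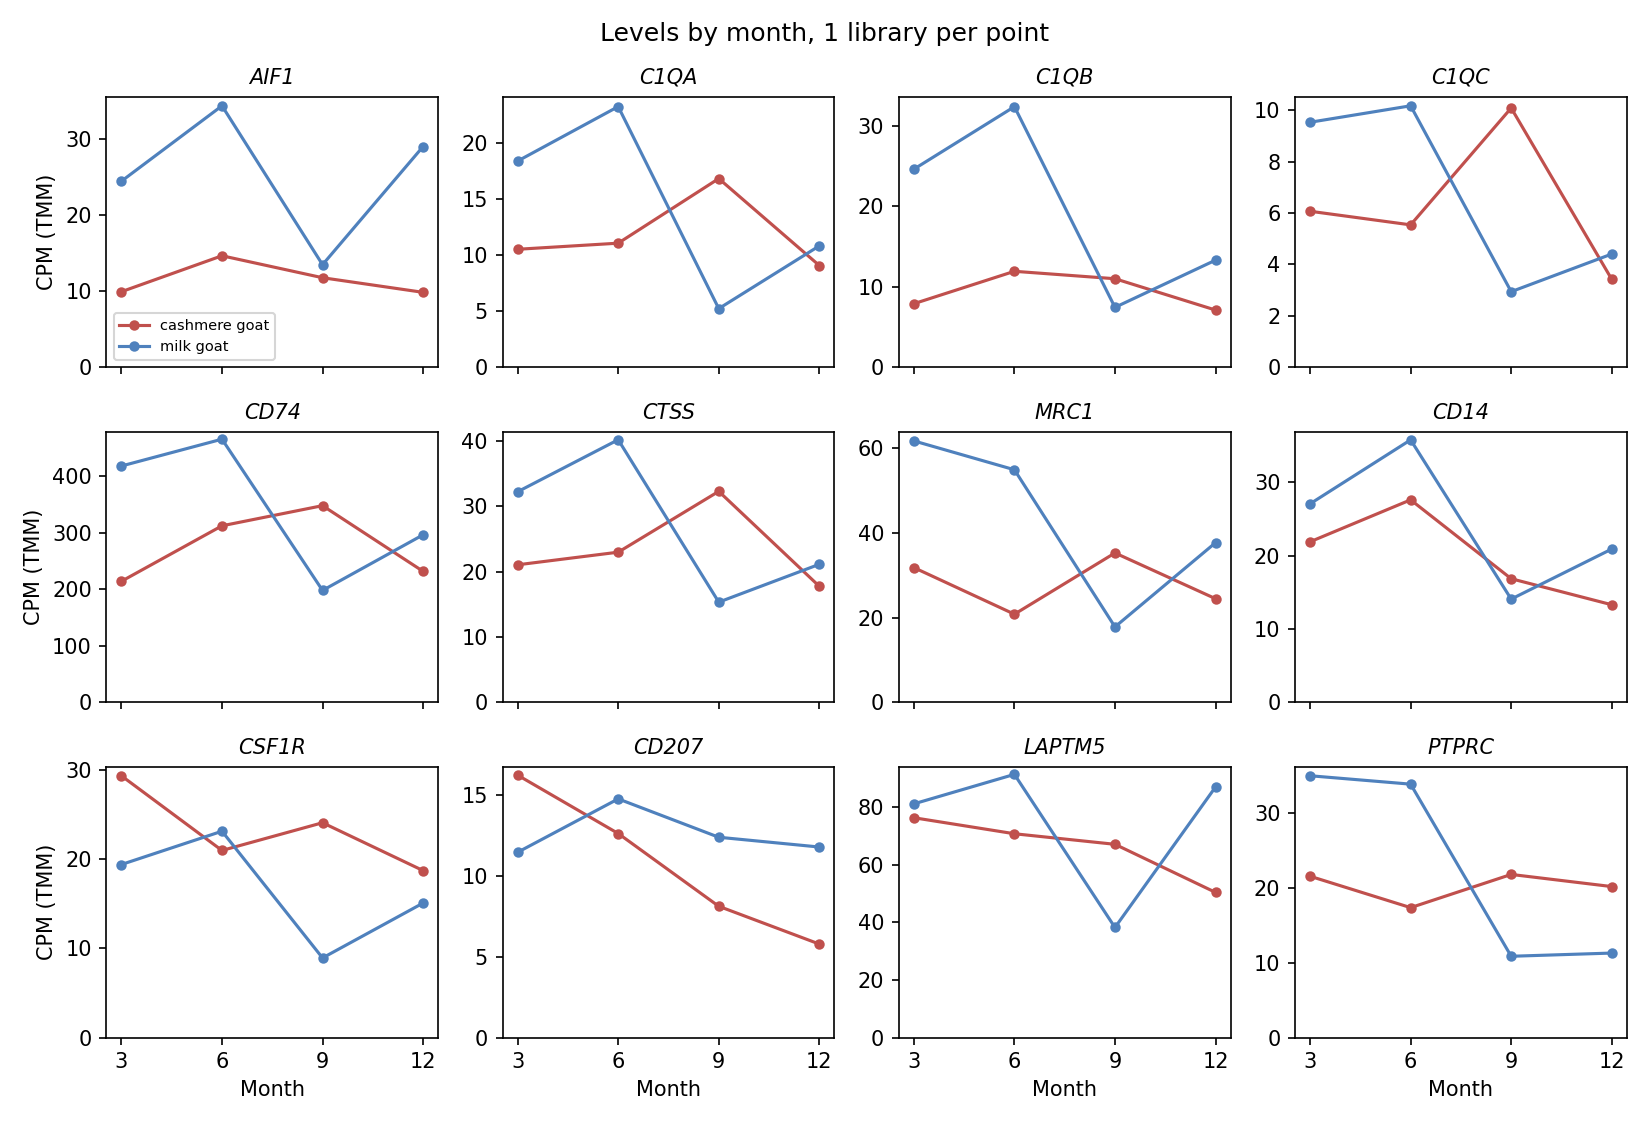
CPM in each library by month for AIF1, the C1q chains, CD74, CTSS, MRC1, CD14, CSF1R, CD207, LAPTM5 and the leukocyte gene PTPRC, with cashmere goats and milk goats as lines through 1 library per month; each panel has its own axis from 0. AIF1 lies lower in cashmere goats in all 4 months, the C1q chains and CD74 are high in milk goats in months 3 and 6 and low in month 9, and CD207 is lower in each later month in cashmere goats.

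Genes shared by leukocytes, and those of T, NK and mast cells, were also lower in month 9 than in month 6 in milk goats. PTPRC, the phosphatase CD45 of all leukocytes, stood at 21.5, 17.3, 21.8 and 20.1 CPM in cashmere goats in months 3, 6, 9 and 12, against 34.9, 33.8, 10.8 and 11.3 CPM in milk goats, with a log2 fold change of 0.02 (edgeR adjusted p = 0.976). It was low in milk goats in months 9 and 12 alike, while the members together were lower in month 9 than in month 12. Of 19 tested genes shared by leukocytes, 17 were lower by over 2-fold in month 9 than in month 6 in milk goats and 1 in cashmere goats, and none was called between breeds. Their summed level was 191 to 239 CPM in cashmere goats and 101 to 304 CPM in milk goats. Of 11 tested T and NK cell genes, 7 were lower by over 2-fold in month 9 in milk goats, with sums of 36.1 to 40.6 CPM in cashmere goats and 23.7 to 58.8 CPM in milk goats. GZMA, a granule protease of the T and NK cell list, had at most 3 reads in any library. All 7 mast cell genes tested were lower by over 2-fold in milk goats in month 9, with sums of 35.9 to 46.4 CPM in cashmere goats and 18.8 to 64.2 CPM in milk goats.

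Other cell types differed in how they moved. From month 6 to month 9 in milk goats, all 17 endothelial and all 10 fibroblast genes were lower, as were 4 of 10 keratinocyte genes. Of all genes, 51.1% were lower there. Of 17 endothelial genes, 7 were lower by over 2-fold in milk goats in month 9 than in month 6, and 1 in cashmere goats, with sums of 364 to 865 CPM in cashmere goats and 364 to 1067 CPM in milk goats. Of 10 fibroblast genes, 5 in milk goats and 3 in cashmere goats were lower by over 2-fold, with sums of 2579 to 33761 CPM in cashmere goats and 2564 to 19840 CPM in milk goats. Of 10 keratinocyte genes 0 were lower by over 2-fold in either breed, and their sum was 38064 to 42892 CPM in cashmere goats and 37898 to 61389 CPM in milk goats. The milk goat library of month 9 also had the highest share of TCHH reads and the lowest TMM factor, given above. Few genes of B and plasma cells, neutrophils, erythrocytes and adipocytes were tested, in part because their symbols were not matched in the count table. All 10 symbols of B and plasma cells were matched, as were 8 of 12 of neutrophils, 3 of 7 of erythrocytes and 5 of 6 of adipocytes. Those matched and not tested had too few reads. Of 10 B and plasma cell genes 2 were tested, with sums of 9.22 to 14.4 CPM in cashmere goats and 9.74 to 18.6 CPM in milk goats, and TNFRSF17, MZB1 and PAX5 had at most 3 reads in any library. From month 6 to month 9, 1 of these 2 was lower by over 2-fold in cashmere goats and 0 in milk goats. Of 12 neutrophil genes 5 were tested, with sums of 31.6 to 57.3 CPM in cashmere goats and 29.4 to 45.1 CPM in milk goats. Of those 5, 3 were lower by over 2-fold in month 9 than in month 6 in cashmere goats and 1 in milk goats, unlike the members. Of 7 erythrocyte genes 1 was tested, with sums of 2.18 to 8.94 CPM in cashmere goats and 0.163 to 6.44 CPM in milk goats. The 3 adipocyte genes tested were part of a sum of 8.48 to 11.1 CPM in cashmere goats and 8.46 to 40.8 CPM in milk goats. That sum was 2.19-fold lower in month 9 than in month 6 in milk goats and 1.25-fold lower in cashmere goats. Among the lists of other cell types the breed comparison called ERG, a transcription factor of endothelium, lower in cashmere goats, at -0.87 (edgeR adjusted p = 0.0287), and THY1, a surface protein of fibroblasts and T cells, also lower, at -0.68 (edgeR adjusted p = 0.0450). The part of these cell types and of TCHH in the levels of the members was not tested. With library totals in place of TMM factors 21 of the 25 members were lower by over 2-fold in month 9 than in month 6 in milk goats, as many as with TMM. The share of all genes was not counted with library totals.

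Further genes of the same cells were counted beside the members. Of 15 further macrophage genes tested, 0 were called in either direction. Their log2 fold changes had a median of 0.39, and 7 of them were lower by over 2-fold in month 9 than in month 6 in milk goats. The most abundant of them that are named by the rule were CTSB, a lysosomal protease, and SLC40A1, the iron exporter ferroportin, which is used by many cells. SLC40A1 averaged 492 ± 110 CPM in cashmere goats and 319 ± 190 CPM in milk goats, with a log2 fold change of 0.79 (edgeR adjusted p = 0.130), and CTSB had 0.55 (adjusted p = 0.237). Neither shared the low month 9 of the members in milk goats, where SLC40A1 stood at 554 CPM in month 9, its highest there, and CTSB at 869 CPM. Of 11 further dendritic and Langerhans cell genes tested, 1 was called. FSCN1, which encodes fascin, an actin-bundling protein of mature dendritic cells that other cells make too, was higher in cashmere goats. It averaged 61.7 ± 18.0 CPM in cashmere goats and 32.4 ± 11.7 CPM in milk goats, with a log2 fold change of 0.95 ± 0.16 (SE, edgeR adjusted p = 0.0325). Each of the 4 months showed that direction.

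Receptors and their signalling partners gave 0 calls among 13 genes tested, with a median log2 fold change of -0.10. SIRPA, an inhibitory receptor of macrophages, averaged 90.0 ± 17.0 CPM in cashmere goats and 118 ± 22.6 CPM in milk goats, and PTPN6, its phosphatase, 37.9 ± 5.41 and 40.0 ± 5.73 CPM in the same order. Ligands and chemokines gave 0 calls among 20 tested, with a median of -0.09. CXCL14, a chemokine made by the epidermis, averaged 467 ± 63.8 CPM in cashmere goats and 521 ± 89.1 CPM in milk goats, and CXCL12, a chemokine of dermal fibroblasts, 211 ± 65.6 and 210 ± 71.7 CPM in the same order. IL6, CSF2 and CSF3 had at most 3 reads in any library.

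The MHC class II pathway gave 0 calls among 7 genes, with a median log2 fold change of 0.02. CIITA, the transactivator of class II genes, averaged 1.57 ± 0.499 CPM in cashmere goats and 1.78 ± 0.879 CPM in milk goats (log2 fold change -0.13, edgeR adjusted p = 0.852). RFXAP, a subunit of the factor that binds class II promoters, averaged 37.97 ± 3.74 CPM in cashmere goats and 39.2 ± 3.08 CPM in milk goats. IFI30, a reductase that prepares antigens, averaged 34.9 ± 5.14 and 34.6 ± 7.12 CPM in the same order. These 7 genes summed to 115 to 137 CPM in cashmere goats and 113 to 125 CPM in milk goats. Their sum thus varied less between libraries than CD74 did, which need not hold for each gene. In milk goats 5 of the 7 were lower in month 9 than in month 6, 2 of them by over 2-fold. CIITA stood at 2.36, 2.70, 0.919 and 1.15 CPM there in months 3, 6, 9 and 12, with 87 reads over the 4 libraries.

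The second count table deposited by the authors covers the same 8 libraries with another set of 20780 genes, so it is another count of the same RNA and not a replicate. It held 30 listed members, of which 26 were tested among 14994 genes. CYBB, not matched in the first table, stood at 4.19, 3.48, 4.75 and 5.56 CPM there in cashmere goats in months 3, 6, 9 and 12, against 3.91, 3.67, 2.72 and 2.83 CPM in milk goats, with a log2 fold change of 0.45 (edgeR adjusted p = 0.335). CCR2 had 15 reads in cashmere goats and 35 in milk goats and was not tested. CD163, CD80 and CD86 were not matched in that table.

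In the second table AIF1 was again lower in cashmere goats, with a log2 fold change of -0.90 ± 0.22 (SE, edgeR adjusted p = 0.0456), where 4.48% of all genes passed lower. CD83 passed higher there, where 2.97% of all genes did, at 2.32 ± 0.54 (edgeR adjusted p = 0.0421). It rested on few reads, with 13, 16, 12 and 19 in cashmere goats, against 7, 8, 2 and 2 in milk goats, and the breeds did not overlap. The seasonal test took 6 of 26 members at an unadjusted p under 0.05, where 5.63% of all genes were taken, and those were MRC1, C1QA, C1QB, C1QC, CD74 and LAPTM5. In milk goats 18 of 26 members were lower by over 2-fold in month 9 than in month 6, against 7.09% of all genes, led by C1QC at 5.58-fold and C1QB at 5.53-fold. In cashmere goats 2 of 26 were, BATF3 and IRF8, against 3.8% of all genes. In month 9, 11 of 25 members were over 2-fold higher in cashmere goats, where 7.74% of all genes were, and 0 were lower, where 8.5% of all genes were. Some members differed between the tables, as given above for CD207, FCER1G, BATF3, IRF8, CD300E and MARCO. LAPTM5 averaged 66.2 CPM in cashmere goats in the first table and 7.31 CPM in the second. In month 12 its log2 ratio, cashmere goats over milk goats, was -0.79 (95% interval -0.96 to -0.62) in the first and 1.25 (95% interval 0.80 to 1.70) in the second. That of CD74 in month 12 was -0.35 (95% interval -0.44 to -0.27) and 0.37 (95% interval 0.26 to 0.47) in the same order. ITGAX stayed at 5.49 to 6.60 CPM in cashmere goats and 5.63 to 6.64 CPM in milk goats in the second table, and its milk goat library of month 9 was the highest there.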

How the data were processed

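Skin RNA was measured in 8 libraries, 1 per breed and month. Per the labels' protocols, libraries were strand-specific, made from polyadenylated RNA and read from both ends; embryos are mentioned there although the tissue label is skin. Bowtie2 is named in the submitters' processing notes, while its version, the counter and the genome build are unstated in the sources used here. The authors deposited raw read counts per gene for 18815 genes, FPKM for the same genes, and raw read counts for a second gene set of 20780 genes. One table names cashmere goats by a transliterated word, and over 12931 symbols the profile of each of its columns was closest to that of the same breed and month in the other table. No promoter, protein or miRNA sequence is printed, and no coordinates are given.

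The count test was edgeR 4.0.16 (R 4.3.3). The filter on low counts was filterByExpr by breed, libraries were scaled by TMM, and a quasi-likelihood F test was run in a model of month and breed with 3 residual degrees of freedom. P-values were adjusted by Benjamini-Hochberg over all genes, with a threshold of 0.05. A standard error is the absolute log2 fold change divided by the square root of F. CPM divides counts by the scaled library total. Intervals of ratios are exact binomial (Clopper-Pearson) at 95%; PCR copies are counted as reads here, so intervals and the limit of 3 reads cover counting error only. The script was tested on simulated data.

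Libraries were paired by month, as the labels give it, and month was a term of the model. The deviations of same-month libraries from their breed means correlated at 0.561, 0.308, 0.433 and -0.0511 in months 3, 6, 9 and 12. Alternatives were RLE factors, library totals, DESeq2 1.42.0, no filter, a stricter filter, limma 3.58.1 on log2(FPKM + 1) and log2(FPKM + 0.1), no term for month, each library left out in turn, and the second count table. The comparison of month 9 with month 6 within breeds and its alternatives were added after the data were seen. The members and all lists were chosen with earlier results of these data known. The rule named every member, up to 4 called genes of each other list or else some of its 2 most abundant, and PTPRC, CIITA, CSF1 and IL34. Lists of other genes covered Fc receptors and signalling, further macrophage and dendritic cell genes, ligands and chemokines, the MHC class II pathway and the other cell types named above.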

Additional observations from a re-analysis of the deposited data

Results flagged for a closer look

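Of 102 groups of 4 libraries examined over the members in both count tables, 4 held a library far from the other 3 by the criterion of Dixon, which chance meets in about 1 of 20 groups. All 4 were in the second count table. MARCO stood at 1.54 CPM in cashmere goats in month 9, against 0.546 to 0.626 CPM in the other months. BATF3 stood at 2.85 CPM in cashmere goats in month 6, against 1.32 to 1.52 CPM, and at 1.10 CPM in milk goats in month 9, against 1.47 to 1.49 CPM. IRF8 stood at 5.70 CPM in cashmere goats in month 6, against 1.88 to 2.43 CPM. In the first table IRF8 was also highest in cashmere goats in month 6, at 5.78 CPM, and so was BATF3, at 4.21 CPM, without passing that criterion.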

How the results depend on the processing

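AIF1 rested on a narrow margin, and its log2 fold change stayed below 0 under each alternative run. With all libraries 1 member was called between breeds. The count was 0 with library totals in place of TMM factors and 0 without a term for month, which is the fit with no replicate block and no pairing of libraries by month, where AIF1 stood at an adjusted p of 0.0657 in edgeR. It was 2 in the second count table, which adds CD83, and 0 to 0 with each library left out in turn, where in 6 of the 8 fits only 0 to 4 of all genes were called, so that 0 members there lies at the background. In the seasonal test 0 to 1 members were called with a library left out. The 1 was CD74 without the milk goat library of month 6, where 501 of 14080 genes were called. The limma fits on FPKM each called 1 member, BATF3 in place of AIF1, where 1374 and 1161 of 14085 genes were called.

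Within months, the second count table gave 1 member over 2-fold higher in cashmere goats in month 6, 2 in month 12 and 5 over 2-fold lower in month 12, against 0, 1 and 3 in the first. Of all genes in the second count table, 4.33%, 11.7% and 17.1% were, in the same order. Library totals gave 15 over 2-fold higher in month 9, against 9, but they raise the month 9 ratio of every gene alike. The share of all genes was not counted with them. The other counts within months, and that of milk goat members lower in month 9 than in month 6, stayed within 1.5 times.

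Of 25 members, 14 changed sign under some alternative, and none of them was called. In the second count table CD14 stood at 0.0717, ITGAM at -0.0535, FCER1G at 0.24, C1QA at 0.0622, C1QC at 0.21, CD74 at 0.11 and LAPTM5 at 0.61. Without a term for month CD86 stood at -0.14, and with library totals C1QC at 0.0329 and ZBTB46 at 0.0589. In limma with pseudocounts of 1 and 0.1, C1QA stood at 0.0352 and 0.0924, C1QC at 0.0988 and 0.17, ZBTB46 at 0.0359 and 0.12, CTSS at 0.0426 and 0.0616, and LAPTM5 at 0.0925 and 0.10. With each library left out in turn, CD68 ran from -0.0508 to 0.37, ITGAM from -0.0049 to 0.78, CD86 from -0.44 to 0.29, C1QA from -0.72 to 0.17, C1QC from -0.64 to 0.23 and MSR1 from -1.498 to 0.19. SPI1 ran from -0.0392 to 0.41, FLT3 from -0.13 to 0.57, ZBTB46 from -0.19 to 0.12, CTSS from -0.56 to 0.0626 and LAPTM5 from -0.41 to 0.11. The causes were not tested. Members under about 3 CPM, among them MSR1, FLT3, ITGAM and BATF3, rest on few reads in each library.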
